A study of Mus musculus with 28 samples.

Results

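Disease-associated microglia are a state that microglia take up around amyloid plaques, dying neurons and damaged myelin, and a small group of genes marks it. Of 10 such genes (Trem2, Tyrobp, Cst7, Spp1, Itgax, Gpnmb, Lgals3, Cd9, Clec7a and Cd63), 9 had a row among the 14617 genes of the deposited table and were matched by their symbol, and Gpnmb was not analysed here. All 9 passed the filter on low counts that left 12327 genes for testing. The genes were followed in brain macrophages of chimeric mice. Every host was a lethally irradiated Cx3cr1-gfp/+ mouse, whose own macrophages carry GFP, and received hDNMT3A fl/fl bone marrow, so that the hDNMT3A fl/fl allele was present in the control marrow as well as in the mutant marrow. The mutant marrow also carried Vav-Cre, which acts in blood-forming cells and their progeny, and the control marrow carried no Cre. At 16 weeks after transplantation, GFP-negative donor cells and GFP-positive host cells were sorted from the brain parenchyma, where the labels call both microglia, and from the leptomeninges, the thin membranes on the brain surface, where the labels call both macrophages. Each of the 2 marrow genotypes gave 4 libraries of donor microglia, 4 of host microglia, 4 of donor leptomeningeal cells and 2 of host leptomeningeal cells, 28 in all. Up to 100000 cells entered a library. Besides marrow origin, donor and host cells differ in irradiation, the Cx3cr1-gfp allele and the hDNMT3A fl/fl allele, which the design cannot tell apart. The ages and sexes of the animals are not given in the sources used here, and no label says that libraries came from separate animals, so the p-values measure the spread between libraries.

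As background, TREM2 is a surface receptor for lipids and lipoproteins that signals through the adaptor TYROBP (DAP12) and the kinase SYK, and variants that disable either partner cause dementia in people. In mouse models, the early part of the state lowers homeostatic microglial genes and raises Apoe and Tyrobp, and the later part, which needs TREM2, raises Cst7, Spp1, Itgax, Clec7a, Cd9, Lgals3 and lysosomal genes. Several of these genes are also expressed by other macrophages and by myeloid cells of the blood, so a raised level in cells of marrow origin is not by itself the microglial state.

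Levels are given as CPM, the unique molecular identifiers (UMIs) of a gene as a part of 1000000 UMIs of its library. Transcripts were counted near their 3′ ends, so CPM is not divided by gene length and levels are compared within a gene and not between genes. Libraries held 479077 to 3066506 UMIs (median 1634653.5). Differences between populations are on the log2 scale, given ± SE (standard error), from edgeR's quasi-likelihood test, with 95% intervals taken from the SE by a normal approximation, and adjusted p is the Benjamini-Hochberg value over all 12327 genes, with 0.05 as the threshold for a call. Mouse Dnmt3a gave 52.2 to 91.9 CPM in donor microglia with no call between genotypes there (adjusted p = 0.905), and transcripts of hDNMT3A were not analysed here. Tmem119 was strongest in host microglia and Mrc1 in host leptomeningeal cells. Tmem119, a microglial marker, had 4309 ± 270.1 CPM (SD, n = 8) in host microglia and 923 ± 156 CPM (SD, n = 8) in donor microglia. It had 631 ± 296 CPM (SD, n = 4) in host leptomeningeal cells and 113 ± 35.7 CPM (SD, n = 8) in donor leptomeningeal cells. Mrc1, a marker of border macrophages, ran the other way in host cells, with 1333 ± 252 CPM (SD, n = 4) in the leptomeninges and 19.2 ± 3.55 CPM (SD, n = 8) in microglia, and had 218 ± 34.8 CPM (SD, n = 8) in donor microglia and 471 ± 85.3 CPM (SD, n = 8) in donor leptomeningeal cells. For donor microglia minus host leptomeningeal cells, Tmem119 was at 0.61 ± 0.19 (adjusted p = 0.00978). P2ry12, another microglial marker, had the opposite sign, at -1.05 ± 0.26 (adjusted p = 0.00209). Cx3cr1 did not pass between compartments in donor (adjusted p = 0.862) or host cells (adjusted p = 0.435). A list of 16 homeostatic microglia genes took 3.03% to 3.89% of UMIs in donor microglia and 3.09% to 5.06% in host leptomeningeal cells. All 15 genes of a neutrophil list had UMIs in every donor leptomeningeal library, where the list took 3.67% to 9.87% of UMIs, against 0.0970% to 1.09% in donor microglia, 0.196% to 0.592% in host leptomeningeal cells and 0.0165% to 0.114% in host microglia. All 10 genes of an astrocyte list had UMIs in every donor microglia library, with 0.101% to 0.466% of UMIs, against 0.0150% to 0.0207% in host microglia, 0.0126% to 0.0177% in donor and 0.0151% to 0.0195% in host leptomeningeal cells. Because each library is a bulk of sorted cells, fewer cells of a type and less RNA per cell cannot be told apart. Models with the summed neutrophil genes, or the summed astrocyte and neuron genes, as a term are given beside many of the results they change, but not beside all. The neutrophil share of donor leptomeningeal libraries and the astrocyte share of donor microglia overlap with no other population, so these terms can hardly be separated from those populations.

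**Figure D1:**
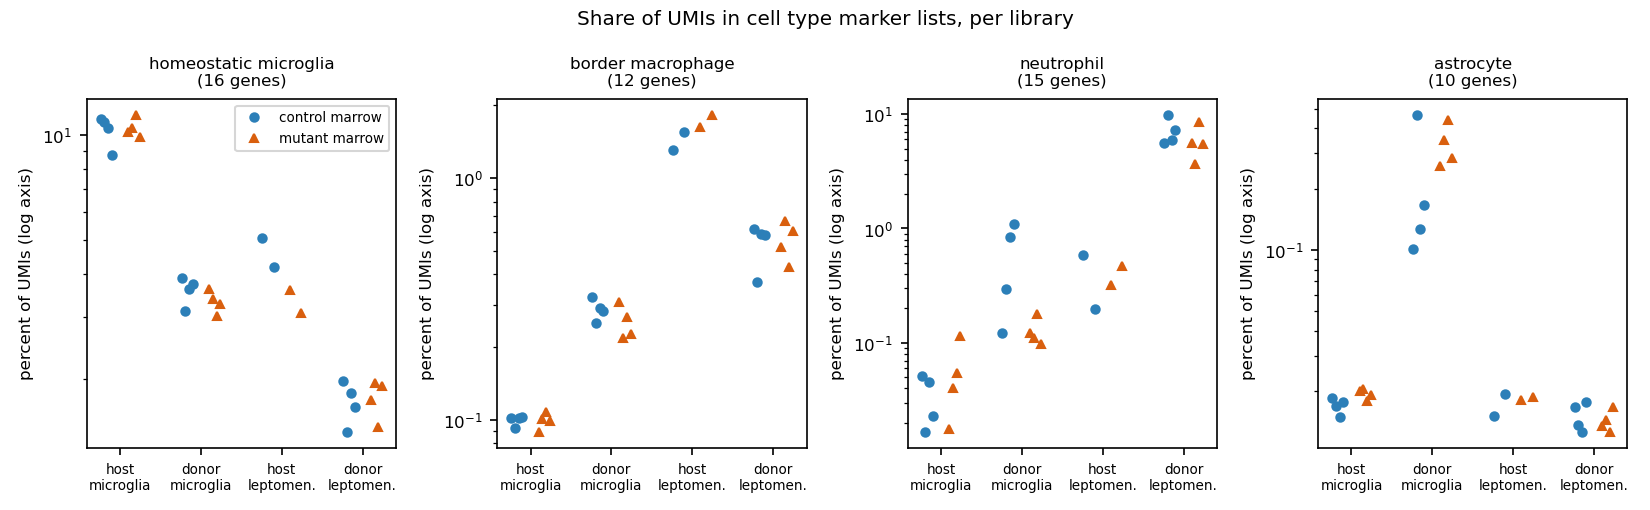
Share of UMIs (percent, log axis) taken by 4 marker lists in each of the 28 libraries, with circles for control and triangles for mutant marrow. Donor leptomeningeal libraries have the highest neutrophil share (3.67% to 9.87%), donor microglia the highest astrocyte share (0.101% to 0.466%) and host microglia the highest homeostatic share (8.75% to 11.4%).

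The receptor Trem2 was highest in host microglia and lowest in donor leptomeningeal cells, and each step of the order host microglia, donor microglia, host leptomeningeal cells, donor leptomeningeal cells passed the test. In host microglia, Trem2 had 3539, 3641, 3368 and 3411 CPM in control chimeras and 3560.1, 3498, 3571 and 3873 CPM in mutant chimeras. In donor microglia, Trem2 had 2572, 1939.6, 2603 and 2575 CPM in control chimeras and 2549, 2263, 1782 and 2279.5 CPM in mutant chimeras, so the donor libraries lay below every host library. Donor minus host microglia was -0.44 ± 0.094 (adjusted p = 7.46e-05), a 1.36-fold lower level in donor cells. In host leptomeningeal cells, Trem2 had 1391 and 1090.1 CPM in control chimeras and 1136 and 904 CPM in mutant chimeras. Donor leptomeningeal cells had 579, 352, 526 and 467 CPM in control chimeras and 568, 604, 441 and 607 CPM in mutant chimeras, and no library of these 4 populations overlapped with the next population in the order. Donor minus host was -0.89 ± 0.11 (adjusted p = 1.74e-08) in the leptomeninges, and leptomeninges minus parenchyma was -1.92 ± 0.098 in donor and -1.48 ± 0.12 in host cells. The donor microglia library with the highest astrocyte share in control chimeras, replicate 2, also had the lowest control value of Trem2. With the summed astrocyte and neuron genes added to the model, donor minus host microglia was 0.25 ± 0.39 (adjusted p = 0.806).

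Tyrobp, the adaptor that TREM2 and several other receptors share, was the flattest of the 9 genes. Its libraries ran from 3925 to 4378 CPM with a median of 4159 in host microglia, and from 2672 to 4941 CPM with a median of 3918 in donor microglia. They ran from 2718 to 3554 CPM with a median of 3138 in host and from 2393 to 3299.7 CPM with a median of 2900.2 in donor leptomeningeal cells. None of the 4 contrasts of origin or compartment passed the test: donor minus host was 0.059 ± 0.094 (adjusted p = 0.615) in microglia and 0.11 ± 0.12 (adjusted p = 0.52) in the leptomeninges. Leptomeninges minus parenchyma was -0.18 ± 0.094 (adjusted p = 0.0991) in donor and -0.23 ± 0.12 (adjusted p = 0.0889) in host cells. This flatness depends on the scaling and on single libraries. With plain library totals, leptomeninges minus parenchyma was -0.42 ± 0.089 (adjusted p = 7.44e-05) in donor and -0.41 ± 0.11 (adjusted p = 0.00139) in host cells, and the donor minus host values were -0.12 ± 0.089 (adjusted p = 0.241) and -0.12 ± 0.11 (adjusted p = 0.4). In donor cells the compartment difference also passed with DESeq2's size factors, at -0.22 ± 0.091 (adjusted p = 0.0311), and in 5 of 16 fits that left out 1 library, for example -0.27 ± 0.084 (adjusted p = 0.005) without control donor microglia replicate 2. With the astrocyte and neuron genes in the model it was -1.80 ± 0.36 (adjusted p = 0.000825), and donor minus host microglia was 1.56 ± 0.34 (adjusted p = 0.00103).

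Clec7a, which encodes the beta-glucan receptor dectin-1, had the reverse order of Trem2 over the populations. In host microglia, Clec7a had 24.7, 30.7, 23.0 and 27.9 CPM in control chimeras and 20.1, 27.0, 25.6 and 18.3 CPM in mutant chimeras. In donor microglia, Clec7a had 106, 117, 113 and 104 CPM in control chimeras and 65.1, 88.5, 60.6 and 103 CPM in mutant chimeras, a 4.23-fold higher level by the fit, at 2.08 ± 0.11 (adjusted p = 9.11e-21). Donor and host libraries did not overlap. In host leptomeningeal cells, Clec7a had 160.1 and 205 CPM in control chimeras and 164 and 201 CPM in mutant chimeras. In donor leptomeningeal cells, Clec7a had 299.9, 292, 291 and 334 CPM in control chimeras and 275, 286, 265 and 288 CPM in mutant chimeras, again without overlap, at 0.91 ± 0.11 (adjusted p = 2.93e-09) against host cells. Leptomeninges minus parenchyma was 1.90 ± 0.095 in donor and 3.07 ± 0.12 in host cells, and every step of the order donor leptomeningeal, host leptomeningeal, donor microglia, host microglia passed the test. Neutrophils also express Clec7a, and with the neutrophil genes in the model donor minus host was 1.20 ± 0.25 (adjusted p = 0.000951) in the leptomeninges and 2.27 ± 0.19 (adjusted p = 2.46e-14) in microglia. The GENCODE M21 annotation classes Clec7a (mm10 chromosome 6, 129461591 to 129472779, minus strand) as a polymorphic pseudogene, although its row held UMIs in every library.

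Itgax encodes the integrin chain CD11c and was higher in donor than in host cells in both compartments. Host microglia had 14.1 to 32.5 CPM with a median of 20.2, and donor microglia 26.2 to 65.7 CPM with a median of 36.1, with some overlap. Donor minus host was 0.92 ± 0.18 (adjusted p = 4.01e-05) in microglia. Donor leptomeningeal cells had 65.2 to 103 CPM with a median of 79.1, above all 4 host leptomeningeal libraries at 23.8 and 41.0 CPM in control and 23.1 and 19.7 CPM in mutant chimeras. There, donor minus host was 1.88 ± 0.20 (adjusted p = 6.4e-10). Itgax was higher in the leptomeninges in donor cells, at 1.40 ± 0.16 (adjusted p = 6.4e-10), while in host cells leptomeninges minus parenchyma was 0.44 ± 0.22 (adjusted p = 0.0833) and did not pass. Over 25 alternative fits this host value ran from -0.0031 to 0.67, and it passed in some of them. With the astrocyte and neuron genes in the model, neither donor minus host microglia, at 1.58 ± 0.82 (adjusted p = 0.283), nor the donor compartment difference, at 0.69 ± 0.89 (adjusted p = 0.76), passed.

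Galectin-3, a sugar-binding protein that is secreted and also binds damaged lysosomes, is encoded by Lgals3, which spanned the widest range of the 9 genes. In host microglia, Lgals3 had 22.3, 18.7, 17.6 and 24.8 CPM in control chimeras and 15.7, 31.5, 28.9 and 27.5 CPM in mutant chimeras. In donor microglia, Lgals3 had 244, 239.7, 321 and 238 CPM in control chimeras and 205, 311, 217 and 365 CPM in mutant chimeras. Every donor library lay far above every host library, and donor minus host was 3.70 ± 0.15 (adjusted p = 1.89e-18), 13-fold higher. In host leptomeningeal cells, Lgals3 had 234 and 271 CPM in control chimeras and 246 and 265 CPM in mutant chimeras. Donor leptomeningeal cells reached 842, 1291, 1021 and 1168 CPM in control chimeras and 923, 919, 1254 and 1045 CPM in mutant chimeras, and donor minus host was 2.30 ± 0.17 (adjusted p = 9.4e-12). Host leptomeningeal cells and donor microglia thus had levels that overlapped, and their difference of 0.062 ± 0.16 did not pass the test (adjusted p = 0.783, 95% interval -0.25 to 0.38). Leptomeninges minus parenchyma was 2.23 ± 0.13 in donor and 3.64 ± 0.17 in host cells. With the neutrophil genes in the model, donor minus host was 1.88 ± 0.34 (adjusted p = 0.000705) in the leptomeninges and 3.44 ± 0.24 (adjusted p = 1.56e-12) in microglia. The astrocyte and neuron genes in the model gave 4.38 ± 0.60 (adjusted p = 1.39e-05) for donor minus host microglia and 1.49 ± 0.62 (adjusted p = 0.191) for compartment in donor cells, which did not pass.

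Spp1 encodes osteopontin, a secreted ligand of CD44 and of integrins. In host microglia, Spp1 had 7.75, 12.9, 12.7 and 12.1 CPM in control chimeras and 5.22, 10.5, 14.5 and 11.6 CPM in mutant chimeras. In donor microglia, Spp1 had 50.1, 37.6, 42.6 and 26.0 CPM in control chimeras and 41.4, 28.8, 18.9 and 45.1 CPM in mutant chimeras, all above the host libraries, and donor minus host was 1.90 ± 0.41 (adjusted p = 0.000398). Host leptomeningeal libraries were split within each genotype, with 10.3 and 115 CPM in control chimeras and 43.2 and 8.13 CPM in mutant chimeras. In donor leptomeningeal cells, Spp1 had 15.0, 15.7, 18.1 and 14.8 CPM in control chimeras and 12.8, 16.5, 7.69 and 13.2 CPM in mutant chimeras, a narrow range below donor microglia, at -1.09 ± 0.39 (adjusted p = 0.0194). With the neutrophil genes in the model that compartment difference was 0.68 ± 1.05 (adjusted p = 0.711), which leaves its direction unresolved, and with the astrocyte and neuron genes donor minus host microglia was 3.02 ± 1.75 (adjusted p = 0.371). The host compartment difference of 1.99 ± 0.47 (adjusted p = 0.00102) rested on the higher host leptomeningeal library of each genotype, control replicate 2 and mutant replicate 1. It was 0.72 ± 0.42 (adjusted p = 0.164) without the first, 1.20 ± 0.61 (adjusted p = 0.114) without the second and -0.070 ± 0.37 (adjusted p = 0.922) without both. Donor minus host in the leptomeninges was -1.18 ± 0.45 (adjusted p = 0.0509) and did not pass, and it rested on the same libraries. It passed without control host replicate 1, at -1.67 ± 0.31 (adjusted p = 0.000143), without mutant host replicate 2, at -1.64 ± 0.45 (adjusted p = 0.00958), with plain library totals, at -1.41 ± 0.44 (adjusted p = 0.0151), and by DESeq2, at -1.27 ± 0.41 (adjusted p = 0.00784). It was 0.084 ± 0.39 (adjusted p = 0.918) without control host replicate 2 and 0.87 ± 0.36 (adjusted p = 0.0779) without both libraries of higher Spp1.

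Cst7 encodes cystatin F, an inhibitor of lysosomal cysteine cathepsins. Host and donor microglia had overlapping levels, 34.5 to 49.9 CPM with a median of 42.3 and 20.5 to 49.1 CPM with a median of 36.6, and donor minus host was -0.014 ± 0.20 (adjusted p = 0.964) with a 95% interval of -0.41 to 0.39. Donor leptomeningeal cells had 7.35 to 23.1 CPM with a median of 14.0, the lowest level of the 4 populations. In host leptomeningeal cells, Cst7 had 38.8 and 82.0 CPM in control chimeras and 48.2 and 18.3 CPM in mutant chimeras. Donor minus host was -1.27 ± 0.25 (adjusted p = 0.000146) in the leptomeninges, but -0.56 ± 0.27 (adjusted p = 0.143) without both host leptomeningeal libraries that had the higher Spp1, which also had the higher Cst7. With the neutrophil genes in the model it was -1.03 ± 0.51 (adjusted p = 0.297). Cst7 was lower in the leptomeninges in donor cells, at -1.03 ± 0.22 (adjusted p = 0.000191), but -0.76 ± 0.56 (adjusted p = 0.373) with the neutrophil genes and -0.62 ± 1.09 (adjusted p = 0.843) with the astrocyte and neuron genes in the model. In host cells leptomeninges minus parenchyma was 0.22 ± 0.23 (adjusted p = 0.432).

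The tetraspanins Cd9 and Cd63, membrane organizers of the cell surface and of late endosomes, ran in opposite directions between donor and host microglia. In host microglia, Cd9 had 1343, 1439, 1402 and 1539.5 CPM in control chimeras and 1414, 1341, 1221 and 1722 CPM in mutant chimeras. In donor microglia, Cd9 had 326, 264, 312 and 323 CPM in control chimeras and 394, 319, 253 and 309.8 CPM in mutant chimeras, 4.05-fold lower, at -2.02 ± 0.095 (adjusted p = 7.53e-23). No library overlapped between them, and with the astrocyte and neuron genes in the model the difference was -1.21 ± 0.40 (adjusted p = 0.0453). In host leptomeningeal cells, Cd9 had 233 and 183 CPM in control chimeras and 141 and 84.7 CPM in mutant chimeras. The donor leptomeningeal libraries had 118, 126, 123 and 131 CPM in control chimeras and 109, 116, 114 and 109 CPM in mutant chimeras, within the span of the host libraries, and donor minus host was -0.13 ± 0.12 (adjusted p = 0.447). With plain library totals that last value was -0.37 ± 0.11 (adjusted p = 0.00998). Cd9 was lower in the leptomeninges than in the parenchyma in host cells, at -3.04 ± 0.13, and in donor cells, at -1.16 ± 0.097.

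For Cd63, the sign of the difference between donor and host cells turned with the compartment. In host microglia, Cd63 had 371, 394, 385 and 466 CPM in control chimeras and 403, 427, 324 and 409.7 CPM in mutant chimeras. In donor microglia, Cd63 had 1110.5, 923, 1037 and 1059 CPM in control chimeras and 1182, 1083, 904 and 977 CPM in mutant chimeras, all above the host range, at 1.56 ± 0.079 (adjusted p = 1.07e-21). Host leptomeningeal cells lay between, with 755 and 882 CPM in control chimeras and 866 and 786 CPM in mutant chimeras. In donor leptomeningeal cells, Cd63 had 445, 396, 443 and 448 CPM in control chimeras and 488, 471, 444 and 429 CPM in mutant chimeras, all below the host leptomeningeal libraries, at -0.65 ± 0.093 (adjusted p = 1.83e-07). Leptomeninges minus parenchyma was 1.23 ± 0.092 in host and -0.97 ± 0.078 in donor cells. The difference of the donor minus host values, leptomeninges minus parenchyma, was -2.21 ± 0.12 (adjusted p = 6.79e-20). With the astrocyte and neuron genes in the model donor minus host microglia was 2.06 ± 0.33 (adjusted p = 9.86e-06), and with the neutrophil genes in the model donor minus host in the leptomeninges was -0.51 ± 0.19 (adjusted p = 0.112).

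**Figure D2:**
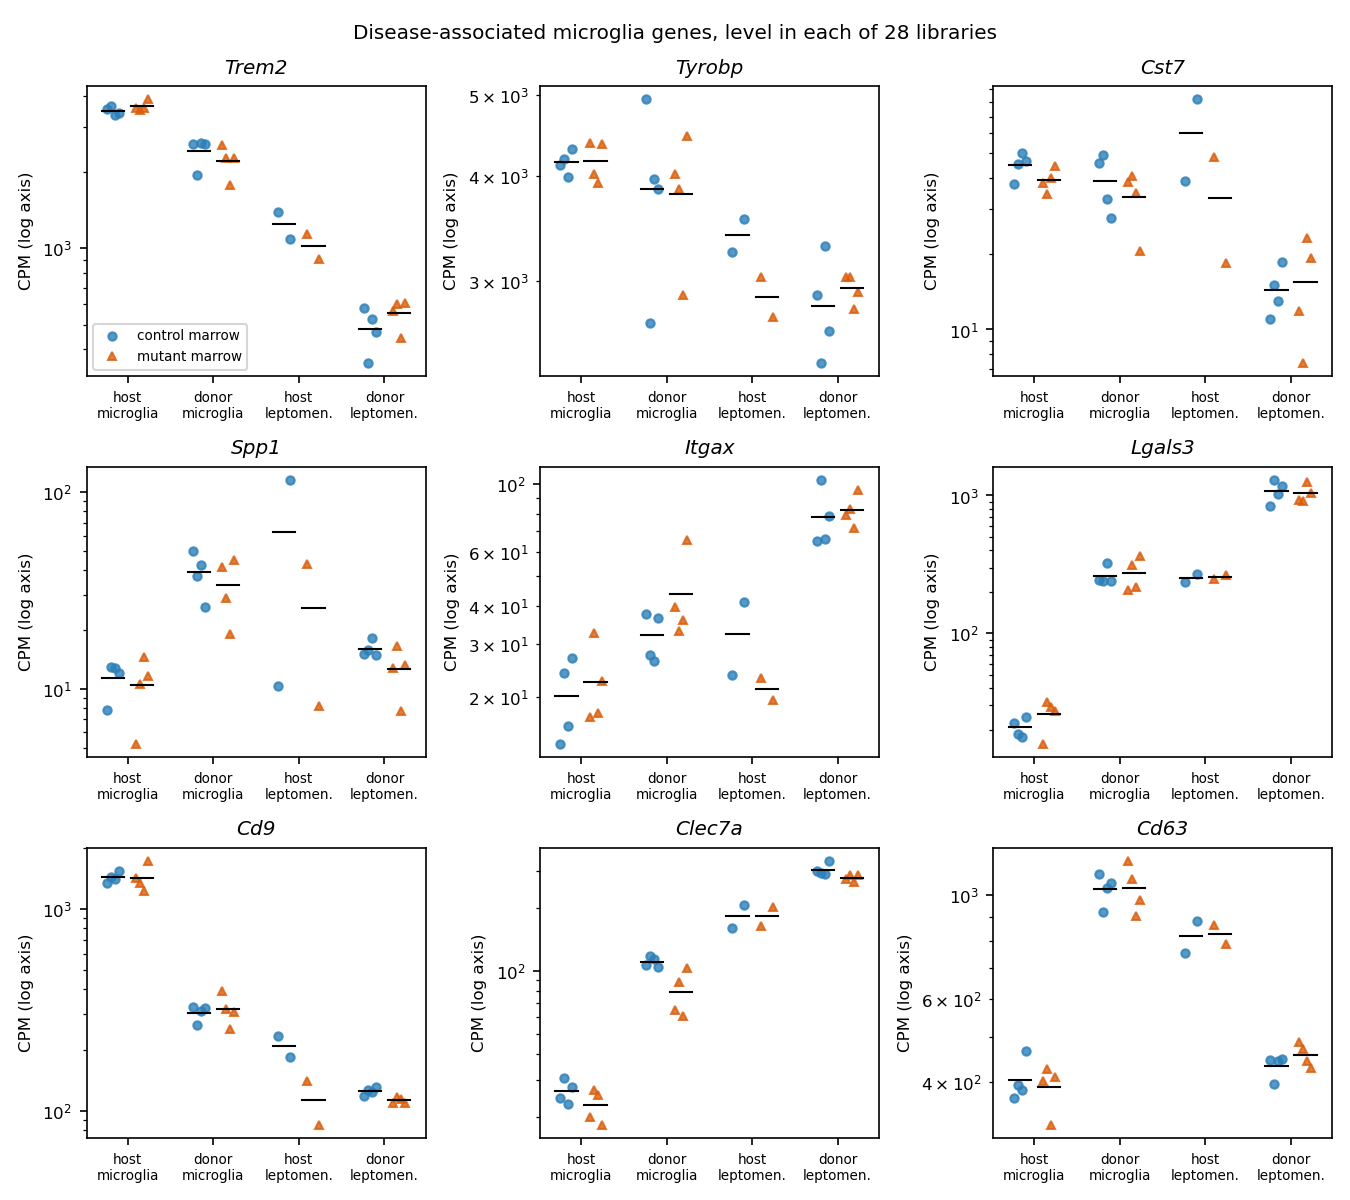
CPM (log axis) of the 9 genes in each of the 28 libraries, by cell population, with circles for control and triangles for mutant marrow and bars at the mean of each group. Trem2 and Cd9 are highest in host microglia, Lgals3, Clec7a and Itgax in donor leptomeningeal cells, and Cd63 in donor microglia.

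Sequences upstream of the start sites are shown for the genes with the most opposed orders over the populations, Trem2 and Cd9 against Lgals3 and Clec7a. They are from RefSeq (GRCm38.p6, the same assembly as mm10), which matched 8 of the 9 genes. Each is printed 5′ to 3′ on the strand of its gene and ends at the RefSeq start site, except that 31 bases of Cd9 and 47 bases of Lgals3 that lie in exons of those genes in GENCODE M21 were left off. The Cd9 window also lies in an exon of Gm26728, a gene on the opposite strand. In the same annotation Trem2 spans positions 48346401 to 48354147 of chromosome 17, Cd9 125460266 to 125494791 of chromosome 6 and Lgals3 47367751 to 47386160 of chromosome 14. Capitals mark matches on either strand to the motifs described after the sequences.
Trem2, chr17:48346151-48346400, plus strand: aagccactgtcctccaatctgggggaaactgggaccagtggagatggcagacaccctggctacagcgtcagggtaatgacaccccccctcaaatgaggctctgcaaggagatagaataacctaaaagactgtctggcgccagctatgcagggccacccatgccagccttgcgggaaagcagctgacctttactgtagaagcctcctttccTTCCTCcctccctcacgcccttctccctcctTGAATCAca
Cd9, chr6:125494792-125495010, minus strand: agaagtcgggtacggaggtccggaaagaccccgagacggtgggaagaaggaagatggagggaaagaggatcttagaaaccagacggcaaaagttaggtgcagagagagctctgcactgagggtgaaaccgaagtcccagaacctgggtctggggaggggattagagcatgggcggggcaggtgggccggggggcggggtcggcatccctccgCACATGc
Lgals3, chr14:47373610-47373812, plus strand: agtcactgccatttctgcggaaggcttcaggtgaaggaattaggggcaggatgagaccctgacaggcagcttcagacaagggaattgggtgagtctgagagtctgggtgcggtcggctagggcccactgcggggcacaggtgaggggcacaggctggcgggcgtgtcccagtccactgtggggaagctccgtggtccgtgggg
Clec7a, chr6:129472780-129473029, minus strand: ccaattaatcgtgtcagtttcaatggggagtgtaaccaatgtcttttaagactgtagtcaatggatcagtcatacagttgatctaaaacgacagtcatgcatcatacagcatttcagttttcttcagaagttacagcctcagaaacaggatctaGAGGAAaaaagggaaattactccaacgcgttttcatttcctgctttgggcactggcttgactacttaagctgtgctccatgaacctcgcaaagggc

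The motifs searched in the 250 bases before each start site were GAGGAA, the core bound by the myeloid factor PU.1, TGANTCA of AP-1, the E-boxes CACGTG and CATGTG that factors such as TFEB bind, and the TATA box TATAAA. Among 32536 RefSeq promoters, GAGGAA stood in 23.4%, TGANTCA in 6.73%, CACGTG in 6.04%, CATGTG in 12.3% and TATAAA in 12.3%. Of the 8 matched genes, 4 held GAGGAA (Trem2, Spp1, Clec7a and Cd63), 2 held TGANTCA (Trem2 and Itgax), 0 held CACGTG, 1 held CATGTG (Cd9) and 1 held TATAAA (Spp1), and no matches overlapped each other. In Trem2 the GAGGAA match began 40 bases and the TGANTCA match 9 bases before the start site, on the minus and plus strand of the gene. In Clec7a the GAGGAA match began 96 bases before the start site, on the strand of the gene. In Cd9 the CATGTG match began 38 bases before the start site, on the strand opposite to the gene. Lgals3 had no match to any of them. These are matches of letters, and PU.1, AP-1 or TFEB binding was not measured.

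Between donor and host microglia, 7 of 9 genes passed the test, 5 higher in donor cells (Spp1, Itgax, Lgals3, Clec7a and Cd63) and 2 lower (Trem2 and Cd9). Of all genes tested, 60.4% passed in this contrast, 33.1% higher and 27.3% lower. Libraries of donor and host microglia did not overlap for 6 of 9 genes, against 28.6% of all genes. The median log2 difference was 0.92 over the 9 genes and 0.037 over all genes. In the leptomeninges, 6 of 9 genes differed by origin, 3 higher in donor cells (Itgax, Lgals3 and Clec7a) and 3 lower (Trem2, Cst7 and Cd63), where 30.2% of all genes passed, 16.9% higher and 13.3% lower. There, 5 of 9 genes had libraries that did not overlap, against 23.5% of all genes. The medians were -0.13 over the 9 genes and 0.016 over all.

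Leptomeninges minus parenchyma changed 8 of 9 genes in donor cells, 3 higher (Itgax, Lgals3 and Clec7a) and 5 lower (Trem2, Cst7, Spp1, Cd9 and Cd63), with Tyrobp the exception, where 62% of all genes passed, 30.5% higher and 31.5% lower. In host cells 6 of 9 passed, 4 higher (Spp1, Lgals3, Clec7a and Cd63) and 2 lower (Trem2 and Cd9), where 56.7% of all genes passed, 31.1% higher and 25.7% lower. Libraries did not overlap for 6 genes in donor cells and for 6 in host cells, against 25.6% and 42.4% of all genes. The medians were -0.97 over the 9 genes and -0.032 over all genes in donor cells, and 0.44 and 0.078 in host cells. Across both, Trem2 and Cd9 were lower and Lgals3 and Clec7a higher in the leptomeninges in donor as in host cells. With plain library totals, the share of calls that were higher moved from 54.8% to 44.0% for origin in the parenchyma, from 56.0% to 29.9% for origin in the leptomeninges, from 49.1% to 34.6% for compartment in donor cells and from 54.8% to 43.9% in host cells, and the median of all genes moved by -0.17, -0.23, -0.24 and -0.18 on the log2 scale.

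**Figure D3:**
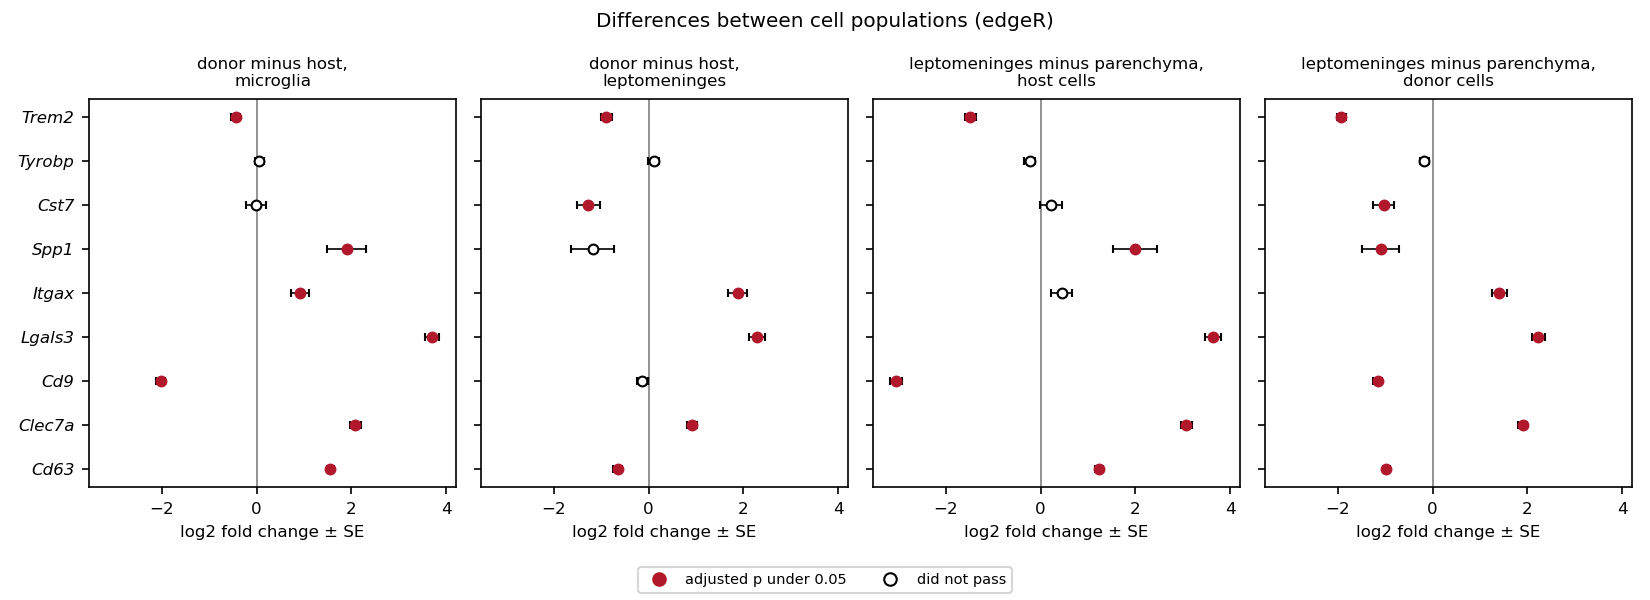
Log2 fold change ± SE (edgeR) of the 9 genes between donor and host cells in each compartment and between compartments in host and donor cells, filled where the adjusted p is under 0.05. Lgals3 and Clec7a lie to the right in all 4 panels, Trem2 to the left in all 4, and Cd63 changes side between the panels.

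The pairs at opposite corners of the design were also compared. Donor leptomeningeal cells against host microglia changed 7 of 9 genes, 4 higher and 3 lower, where 72.2% of all genes passed, 39.5% higher and 32.8% lower. Libraries did not overlap for 7 of 9 genes, against 49.7% of all genes. This pair gave the widest differences for Lgals3, at 5.93 ± 0.16 (adjusted p = 5.9e-24), Clec7a, at 3.98 ± 0.10 (adjusted p = 3.48e-34), and Cd9, at -3.18 ± 0.098 (adjusted p = 1.08e-30). Tyrobp, at -0.12 ± 0.094 (adjusted p = 0.256), and Spp1, at 0.81 ± 0.39 (adjusted p = 0.0694), did not pass. Donor microglia against host leptomeningeal cells changed 5 of 9 genes, 4 higher and 1 lower, where 45.8% of all genes passed, 24.2% higher and 21.6% lower. Libraries did not overlap for 4 of 9 genes, against 21.9% of all genes. Trem2, at 1.04 ± 0.12, Cd9, at 1.03 ± 0.12, and Cd63, at 0.32 ± 0.096, were higher in donor microglia, and Clec7a, at -0.99 ± 0.12, was lower. Tyrobp, at 0.29 ± 0.12 (adjusted p = 0.0399), was the fifth, and it missed the threshold in fits without single host leptomeningeal libraries, for example 0.22 ± 0.13 (adjusted p = 0.182) without control replicate 1, and in several other alternatives. Cd63 missed it without control host leptomeningeal replicate 1, at 0.24 ± 0.11 (adjusted p = 0.0768), without mutant replicate 2, at 0.24 ± 0.11 (adjusted p = 0.0869), and with the astrocyte and neuron genes in the model, at 0.81 ± 0.32 (adjusted p = 0.138), where Clec7a also missed it, at -1.08 ± 0.43 (adjusted p = 0.146).

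Whether the donor minus host difference itself depended on the compartment was tested as an interaction, leptomeninges minus parenchyma. It passed for 8 of 9 genes, 2 positive and 6 negative, where 42.3% of all genes passed, 19.1% positive and 23.2% negative. It was positive for Itgax, at 0.96 ± 0.27 (adjusted p = 0.00389), and for Cd9, at 1.89 ± 0.16 (adjusted p = 9.34e-14), which was lower in donor cells in the parenchyma and did not pass in the leptomeninges. It was negative for Lgals3, at -1.40 ± 0.21 (adjusted p = 4.44e-06), and Clec7a, at -1.17 ± 0.15 (adjusted p = 2.21e-08), which were higher in donor cells in both compartments but by less in the leptomeninges. For Trem2 it was -0.45 ± 0.15 (adjusted p = 0.0133), and it missed the threshold without control host leptomeningeal replicate 1, at -0.29 ± 0.16 (adjusted p = 0.158), or mutant replicate 1, at -0.33 ± 0.16 (adjusted p = 0.108). For Cst7 it was -1.26 ± 0.32 (adjusted p = 0.00216) and for Spp1 -3.08 ± 0.61 (adjusted p = 0.000316), and without both host leptomeningeal libraries of higher Spp1 these were -0.52 ± 0.31 (adjusted p = 0.213) and -1.01 ± 0.43 (adjusted p = 0.0693). For Tyrobp it was 0.052 ± 0.15 (adjusted p = 0.831). With the astrocyte and neuron genes in the model, 2 of 9 genes passed, Cd63 at -2.77 ± 0.38 (adjusted p = 7.13e-07) and Tyrobp at -1.62 ± 0.38 (adjusted p = 0.0066).

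Mutant against control marrow changed 0 of 9 genes in each of the 4 populations by edgeR. Of all genes, 0.0892% passed in donor microglia, 0.0649% in host microglia, 0.0487% in donor leptomeningeal cells and 0% in host leptomeningeal cells. At an unadjusted p under 0.05 the counts of the 9 genes were 1, 0, 0 and 2, and those of all 12327 genes were 1255, 463, 585 and 665. DESeq2's Wald test called 0, 0, 0 and 1, and limma voom called 0 in each. The most marked difference in donor microglia was in Clec7a, where the mutant libraries (65.1, 88.5, 60.6 and 103 CPM) all lay below the control libraries (106, 117, 113 and 104 CPM), at -0.50 ± 0.15 (adjusted p = 0.204, 95% interval -0.80 to -0.20). Libraries that did not overlap were found for 1 of 9 genes there, against 3.53% of all genes, and for 0 of 9 in host microglia, against 3.39%. The neutrophil list took 0.121% to 1.09% of UMIs in the control and 0.0970% to 0.179% in the mutant libraries, and the astrocyte list 0.101% to 0.466% and 0.259% to 0.440%, and their part in the Clec7a values was not tested.

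In host leptomeningeal cells, Cd9 differed most between the genotypes relative to its error, at -0.86 ± 0.20 (adjusted p = 0.129, 95% interval -1.25 to -0.47), with 233 and 183 CPM in control and 141 and 84.7 CPM in mutant libraries. It passed without mutant replicate 1, at -1.27 ± 0.24 (adjusted p = 0.0194), without both libraries of higher Spp1, at -1.42 ± 0.26 (adjusted p = 0.0156), with plain library totals, at -0.91 ± 0.19 (adjusted p = 0.0473), and by DESeq2, at -0.88 ± 0.20 (adjusted p = 0.00728). The homeostatic microglia list, whose cells had the highest Cd9, took 4.18% to 5.06% of UMIs in these control libraries and 3.09% to 3.61% in the mutant libraries, and its part in the Cd9 values was not tested. Libraries that did not overlap were found for 3 of 9 genes (Tyrobp, Itgax and Cd9), against 33.9% of all genes with 2 libraries a side. Cst7 was at -0.84 ± 0.39 (adjusted p = 0.889) and Spp1 at -1.27 ± 0.71 (adjusted p = 0.931), each with overlapping libraries.

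For the other genes and populations the genotype intervals give the sizes that remain possible. The 95% intervals in donor microglia were -0.37 to 0.15 for Trem2, -0.26 to 0.26 for Tyrobp, -0.19 to 0.24 for Cd63 and -0.19 to 0.35 for Cd9, and were widest for Spp1, at -1.35 to 0.87. In host microglia they were -0.17 to 0.35 for Trem2, -0.21 to 0.28 for Cd9 and -0.15 to 0.78 for Lgals3. In donor leptomeningeal cells, Trem2 was at 0.23 ± 0.13 (adjusted p = 1, 95% interval -0.034 to 0.49). The mutant libraries of Clec7a and of Cd9 lay below all control libraries there, at -0.10 ± 0.11 and -0.13 ± 0.13 in the fit, 2 of 9 genes against 3.62% of all genes, and neither passed (adjusted p = 1 and 1). The genotype effect was called as different between donor and host microglia for 0 of 9 genes by edgeR, where 0.0324% of all genes passed, and 0 of 9 and 747 of all 12327 genes had an unadjusted p under 0.05. Between donor leptomeningeal cells and donor microglia it was called as different for 0 of 9, where 0% of all genes passed and 1 of 9 and 785 of all 12327 genes had an unadjusted p under 0.05, the 1 being Clec7a at 0.40 ± 0.19 (adjusted p = 0.763). DESeq2 and limma voom also called 0 of 9 for each of these differences.

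**Figure D4:**
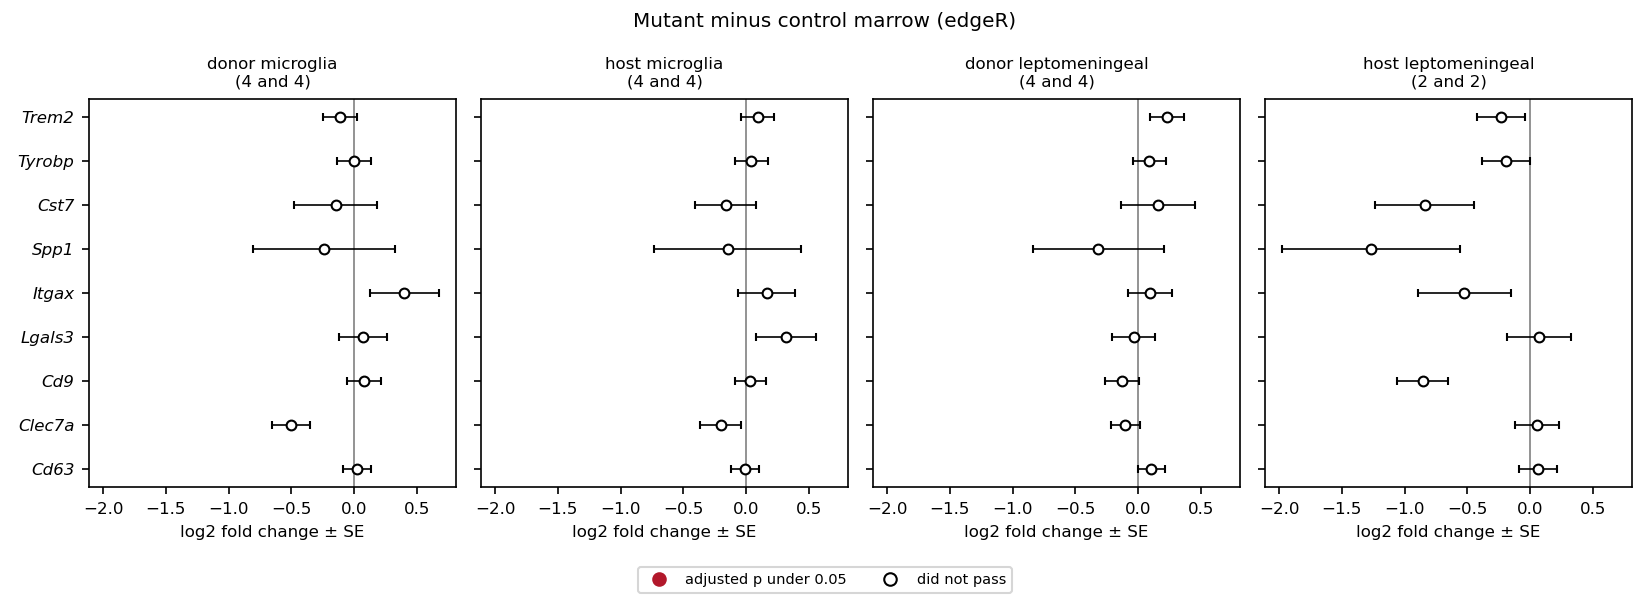
Log2 fold change ± SE (edgeR) of the 9 genes for mutant minus control marrow in the 4 populations, with open symbols because no adjusted p was under 0.05. Clec7a in donor microglia (-0.50 ± 0.15) and Cd9 in host leptomeningeal cells (-0.86 ± 0.20) lie farthest from 0 relative to their SE.

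Like the 9 genes, other genes of the disease-associated programme did not all move in 1 direction. Medians of lists are log2 differences, beside the medians over all genes given above. Counts of lists stand beside the shares of all genes that passed. For origin these were 60.4% in the parenchyma and 30.2% in the leptomeninges, and for compartment 62% in donor and 56.7% in host cells. Of 6 further early genes, 3 were higher and 2 lower (median 0.95) in donor than in host microglia. Apoe, a lipid carrier, was at 4.71 ± 0.11 (adjusted p = 3.38e-30), Lyz2, a lysozyme gene, at 3.61 ± 0.087 (adjusted p = 9.45e-34) and Fth1, a ferritin chain, at 1.74 ± 0.082 (adjusted p = 7.53e-23). Apoe had 94927 ± 15541 CPM (SD, n = 8) in donor microglia and 4141 ± 927 CPM (SD, n = 8) in host microglia. Astrocytes also express Apoe, and the astrocyte share was also higher in donor than in host microglia, while it overlapped between host leptomeningeal cells and host microglia. The part of astrocyte RNA in the Apoe values was not tested. In the leptomeninges 1 was higher and 3 lower (median -0.38) by origin, with Lyz2 at 0.90 ± 0.099 and the protease gene Ctsd at -1.58 ± 0.11. Between compartments 5 were higher and 1 lower (median 1.17) in host cells, with Lyz2 at 4.00 ± 0.095 and Apoe at 3.95 ± 0.12, and 2 were higher and 3 lower (median -0.39) in donor cells, with Lyz2 at 1.29 ± 0.079, Apoe at -1.22 ± 0.099 and Ctsd at -2.06 ± 0.097. Lyz2 in donor cells did not pass with the astrocyte and neuron genes in the model, at 0.56 ± 0.33 (adjusted p = 0.397).

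Of 14 further late genes, 6 were higher and 5 lower (median -0.11) in donor than in host microglia. Axl, a receptor for dying cells, was at 3.31 ± 0.10 (adjusted p = 9.13e-30) and the growth factor gene Igf1 at 3.79 ± 0.20 (adjusted p = 1.16e-18), while the cathepsin gene Ctsl was at -2.20 ± 0.097 (adjusted p = 6.55e-24) and the chemokine gene Ccl6 at -1.19 ± 0.10 (adjusted p = 3.82e-14). Ccl6 did not pass with the astrocyte and neuron genes in the model, at -0.43 ± 0.46 (adjusted p = 0.681). By origin in the leptomeninges 3 were higher and 7 lower (median -0.36), with Axl at 1.26 ± 0.12 and Ctsl at -1.56 ± 0.11. By compartment 6 were higher and 4 lower (median 0.18) in host cells, with Igf1 at 5.28 ± 0.19 and Axl at 2.14 ± 0.12, and 4 were higher and 5 lower (median 0.054) in donor cells. For mutant against control marrow, 0 of the 6 early and 0 of the 14 late genes passed in any of the 4 populations. Of all genes, only 0% to 0.0892% passed in these contrasts, so counts of 0 do not set the lists apart. Homeostatic microglia genes, which the state lowers, were lower in donor than in host microglia for 16 of 16, and in the leptomeninges for 14 of 16.

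Of 12 genes of TREM2 signalling below the receptor, 0 were higher and 11 lower (median -0.65) in donor than in host microglia, including the kinase gene Lyn at -1.18 ± 0.087 (adjusted p = 4.22e-16) and Inpp5d, the phosphatase SHIP1, at -1.12 ± 0.087 (adjusted p = 2.47e-15). Neither passed with the astrocyte and neuron genes in the model, where Lyn was at -0.090 ± 0.38 (adjusted p = 0.944) and Inpp5d at -0.91 ± 0.39 (adjusted p = 0.153), each with a wider SE. In the leptomeninges 4 were higher and 0 lower (median 0.049) in donor cells, including Plcg2, a phospholipase, at 1.04 ± 0.15 (adjusted p = 6.25e-07) and the adaptor gene Hcst (DAP10) at 0.97 ± 0.15 (adjusted p = 1.43e-06). With plain library totals that count was 3 higher and 3 lower, and with the neutrophil genes in the model neither Plcg2, at 0.61 ± 0.29 (adjusted p = 0.254), nor Hcst, at 0.64 ± 0.31 (adjusted p = 0.257), passed, each with a wider SE. Between compartments 7 were higher and 4 lower (median 0.84) in donor cells, with Hcst at 1.56 ± 0.13, and 3 were higher and 5 lower (median -0.13) in host cells, with Lyn at -1.47 ± 0.11 and Inpp5d at -1.38 ± 0.11. Hcst in donor cells did not pass with the astrocyte and neuron genes in the model, at 0.59 ± 0.65 (adjusted p = 0.709). The difference between compartments of the origin effect passed for 9 of the 12 genes of TREM2 signalling, all positive, where 42.3% of all genes passed, 19.1% positive. Of 8 further receptors that pair with TYROBP, 5 were higher and 2 lower (median 1.79) in donor microglia and 6 were higher and 1 lower (median 1.98) in donor leptomeningeal cells. That list holds Trem1 and Trem3, which neutrophils express, and the median neutrophil share was also higher in donor than in host cells in both compartments. The summed UMIs of the list ran the other way, with 0.0378% to 0.0630% in donor and 0.151% to 0.209% in host microglia. The part of neutrophil RNA in these counts was not tested.

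Receptors and partners of the secreted and surface members were mixed. Of 7 osteopontin receptor genes, 2 were higher and 5 lower (median -0.98) in donor than in host microglia, with Cd44 at 2.34 ± 0.21 (adjusted p = 1.06e-13) and the integrin gene Itga4 at 4.40 ± 0.21 (adjusted p = 1.16e-22). Cd44 was higher also by origin in the leptomeninges, at 2.16 ± 0.16, and in the leptomeninges than in the parenchyma, at 2.49 ± 0.14 in donor and 2.67 ± 0.21 in host cells, and Itga4 was at 4.74 ± 0.22 in host cells. The Cd44 compartment difference in donor cells did not pass with the astrocyte and neuron genes in the model, at 1.94 ± 0.81 (adjusted p = 0.171). The chain that pairs with CD11c, Itgb2, was at -1.51 ± 0.090 (adjusted p = 2.7e-19) in donor minus host microglia, while Itgax was at 0.92 ± 0.18. Itgb2 did not pass with the astrocyte and neuron genes in the model, at -0.44 ± 0.36 (adjusted p = 0.553). The other alpha chains of that family split, with Itgam at -1.98 ± 0.086 (adjusted p = 4.01e-24) and Itgal at 3.49 ± 0.20 (adjusted p = 7.39e-19). Among 5 cathepsin and legumain genes that cystatin F acts on, 2 were higher and 3 lower (median -0.39) in donor microglia, with Ctsc at 1.46 ± 0.096, and 0 were higher and 4 lower (median -0.57) in donor leptomeningeal cells, with Ctsl at -1.56 ± 0.11 and Lgmn at -1.27 ± 0.11.

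Of 15 other tetraspanin genes, more were lower than higher in these contrasts. In donor against host microglia 3 were higher and 10 lower (median -0.75), with Cd81 at -1.56 ± 0.087 (adjusted p = 2.42e-20) and Cd37 at -1.43 ± 0.085 (adjusted p = 3.03e-19). Cd37 did not pass with the astrocyte and neuron genes in the model, at -0.39 ± 0.34 (adjusted p = 0.585). In host leptomeninges against parenchyma 2 were higher and 12 lower (median -1.20), with Cd81 at -1.54 ± 0.11 and Cd37 at -1.62 ± 0.11. Of 4 other galectins 1 was higher and 1 lower (median -0.23) in donor than in host microglia. The higher one was Lgals1, at 2.69 ± 0.10 (adjusted p = 1.52e-26) in donor minus host microglia, 2.57 ± 0.092 between compartments in donor and 5.11 ± 0.11 in host cells. Of 8 genes of the dectin-1 pathway and related lectins, 4 were higher and 3 lower (median 1.59) in donor microglia and 4 were higher and 0 lower (median 2.05) in the leptomeninges of host cells. Clec12a, an inhibitory lectin, was at 5.23 ± 0.14 and 4.39 ± 0.16 and Clec4n (dectin-2) at 5.41 ± 0.30 and 7.28 ± 0.26 in these contrasts.

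The pattern over the 8 groups was also set beside those of all 8466 genes with a mean of at least 10 CPM, by the root mean square of the difference between centred log2 group means, where 0 is the same pattern. Nearest to Trem2 were Tcf7l2 (0.10) and Hps4 (0.13), to Cd9 Slco4a1 (0.18) and Cd276 (0.24), and to Cd63 Galc (0.17) and Acbd4 (0.17). Nearest to Lgals3 were Vim (0.20) and Napsa (0.22), to Clec7a Ifi27l2a (0.16) and Anxa5 (0.24), and to Itgax H2-DMb2 (0.17) and 6530402F18Rik (0.19). Spp1 was nearest to Cd22 (0.17) and Bcl2l2 (0.24), Cst7 to Commd9 (0.24) and Slc11a2 (0.25), and Tyrobp to Chd2 (0.064) and Khdc4 (0.078). Among the 9 genes themselves the closest pair was Spp1 and Cd63 (0.27) and the farthest Lgals3 and Cd9 (3.32), with Trem2 and Cd9 at 0.68 and Lgals3 and Clec7a at 0.80. Groups, and not libraries, are the points of this measure, and their means come from plain library totals of the tested genes. The measure is not scaled to the range of a gene over the groups, so flat genes have small distances to each other. That range was 0.58 for Tyrobp and 5.61 for Lgals3 on the log2 scale. The host leptomeningeal points of Spp1 are means of split libraries, 10.3 and 115 CPM in control and 43.2 and 8.13 CPM in mutant chimeras. Its nearness to Cd63, Cd22 and Bcl2l2 rests in part on these means.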

How the data were processed

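RNA of sorted macrophages was measured by MARS-seq in 28 libraries. The authors deposited 1 table in which each library has raw, normalized and rlog values, per the file headers. Its raw values, as deposited, are counts of UMIs by gene. The submitters' processing notes name mm10, and the sources used here name no aligner. Deposited normalized values are signal, the counts over 1 factor per library, and rlog values in the deposited table are log2. Neither was used in a test. CPM was computed from the counts over plain library totals.

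Counts were kept by filterByExpr with the 8 groups (12327 of 14617 genes) and fitted over all 28 libraries with edgeR 4.0.16 (TMM scaling, robust quasi-likelihood test, Benjamini-Hochberg adjustment at 0.05). The script was tested on simulated data. With 2 to 4 libraries a group, the number of libraries limits the precision. Alternatives used DESeq2 1.42.0, limma 3.58.1 voom, other scalings, no filter, thinned libraries, marker lists as covariates, replicate blocks and left-out libraries. The genes and lists were chosen with earlier results of these data known. Named genes were the 9 genes, up to 4 genes per list and contrast with the smallest adjusted p, and the 2 genes of nearest pattern. Plain library totals and the fit without both host leptomeningeal libraries of higher Spp1 were added after seeing the data.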

Additional observations from a re-analysis of the deposited data

Results flagged for a closer look

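In 54 groups of 4 libraries examined for a library apart from the other 3 by Dixon's criterion, 4 had one, and chance gives about 1 in 20. These were Trem2 in control donor microglia, where replicate 2 was lowest at 1939.6 CPM, Spp1 in control host microglia, where replicate 1 was lowest at 7.75 CPM, Lgals3 in control donor microglia, where replicate 3 was highest at 321 CPM, and Cd63 in control donor leptomeningeal cells, where replicate 2 was lowest at 396 CPM. Control donor microglia replicate 2 also had the highest astrocyte share (0.466% of UMIs) and the highest mitochondrial share (4.72%) of the donor microglia.

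The donor minus host difference was not the same in leptomeninges and parenchyma, by the test of the interaction, for Trem2 (-0.45), Cst7 (-1.26), Spp1 (-3.08), Itgax (0.96), Lgals3 (-1.40), Cd9 (1.89), Clec7a (-1.17) and Cd63 (-2.21), leptomeninges minus parenchyma on the log2 scale. Host leptomeningeal cells have 2 libraries per genotype, and their part in the values for Trem2, Cst7 and Spp1 is given above with those genes.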

How the results depend on the processing

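The number of the 9 genes called stayed within 1.5 times of the main count in the alternatives run, with these exceptions. For genotype in host leptomeningeal cells it went from 0 to 1 (Cd9) with DESeq2's Wald test, with plain library totals and without both host leptomeningeal libraries of higher Spp1, and leaving out single libraries gave 0 to 1, the 1 being without mutant replicate 1. With the astrocyte and neuron genes in the model it went from 8 to 5 for compartment in donor cells, from 5 to 3 for donor microglia minus host leptomeningeal cells and from 8 to 2 for the interaction of origin and compartment, which also gave 5 without both host leptomeningeal libraries. For donor microglia minus host leptomeningeal cells, leaving out single libraries gave 3 to 6, the 3 being without control host leptomeningeal replicate 1 or mutant replicate 2. The cause was not tested.

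Of values of single genes that were called before or after a change of setting, these turned direction: Trem2 for origin in the parenchyma (0.25, astrocyte and neuron covariate), Tyrobp for the interaction (-1.62, same covariate), Spp1 for compartment in donor cells (0.68, neutrophil covariate), Spp1 for compartment in host cells (-0.070 without both libraries), and Spp1 for donor microglia minus host leptomeningeal cells (1.95 without both libraries, and -0.60 to 1.16 without single libraries, the highest being without control host leptomeningeal replicate 2). Of the values of the 9 genes under alternatives, 2785 kept direction and call, 43 lost the call and 39 gained it with the same direction, 6 turned as listed, and 133 changed sign without being called in either fit. For the other genes named, 1348 values kept direction and call, 10 lost the call and 0 turned.

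Pairing by replicate number did not show in the counts: the deviations of same-numbered libraries of 1 genotype correlated at -0.0020 on average (36 pairs, highest 0.091). No label states which libraries share an animal, and a correlation near 0 cannot exclude that same-numbered libraries do. With the replicate number as a block, 7, 6, 8 and 7 of the 9 genes were called for origin in parenchyma and leptomeninges and compartment in donor and host cells, and 0 for genotype. A block of genotype and number could not be fitted to genotype contrasts, and the fit of only the groups of a contrast was not run for the interaction, which uses all groups. Low UMI counts limit Spp1, Cst7 and Itgax most: host microglia had at most 14.5 CPM of Spp1, where 3 UMIs are 1.03 to 1.97 CPM.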
